A study of Homo sapiens with 6 samples.

Results

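The genes described here are 9 components and regulators of the complement system, measured by 11 of the 32321 probe sets of a human gene array. C3 is the central component of the system, C5 starts the terminal steps, CFB is the protease of the alternative pathway, and CFI, C4BPA, C4BPB, CD46, CD55 and CD59 restrain the cascade. The group was chosen by measured values of the same arrays: C3 was taken because its readings were lower with DKK1 than without it, and the other 8 genes were set around it by function. The differences between both groups are therefore given for these genes as a description, with no p-value of their own, and counts of calls among them are printed only beside the share of all probe sets. All probe sets whose single gene symbol in the platform table was one of the 9 were taken: 3 for CFB and 1 for each other gene, out of 19158 probe sets with a single symbol that stand for 18404 genes. No probe set with several symbols names any of the 9.

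DLD-1 is an established human colorectal adenocarcinoma cell line with mutated APC, in which the Wnt/beta-catenin pathway is constitutively active, and the study describes it as lacking endogenous DKK1. DKK1 encodes Dickkopf-1, a secreted Wnt antagonist. In DLD-1/DKK1 cells, a doxycycline-inducible Tet-On lentivirus expressed DKK1 with a V5 tag together with a green fluorescent protein (GFP). DLD-1/Mock cells carried a lentivirus that the study describes as encoding no ectopic gene. Its supplement also describes the vector with GFP but without DKK1, and counts transduced cells by GFP. Both groups were treated with doxycycline for a day before RNA was extracted from 3 independent dishes per group, so neither an untreated group nor the uninfected line is part of the comparison. The labels give over 95% transduced cells, and the supplement gives this share of GFP-positive cells as the typical yield. The study describes no picking of single clones, and the level of DKK1 is that of a transgene. The doxycycline concentration is 10 mg/ml in the labels and 10 with the unit of micrograms per ml in the methods of the study.

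Complement is a chain of plasma and cell-surface proteins in which one protease activates the next. The classical and lectin pathways cleave C4 and C2, the alternative pathway uses CFB, and all of them build a C3 convertase that splits C3 into the small fragment C3a and the opsonin C3b. C3b binds covalently to surfaces through a thioester and is part of the convertase that cleaves C5, after which C5b to C9 assemble into the membrane attack complex. The liver makes most of the plasma proteins, while intestinal epithelial cells can make C3 and CFB themselves and, like most cells, carry CD46, CD55 and CD59 as protection.

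Values are log2 expression after robust multichip averaging, one value per probe set and array. A difference is DLD-1/DKK1 minus DLD-1/Mock on that scale, with its standard error (SE) from limma, and a ratio of array values is DLD-1/Mock over DLD-1/DKK1. DKK1 itself read 5.15, 5.74 and 5.01 in the DLD-1/Mock arrays and 12.30, 12.38 and 12.36 in the DLD-1/DKK1 arrays, as the labels have it. Array medians lay between 6.76 and 6.86. DLD-1/Mock 2 stood slightly apart, with correlations of 0.9953 to 0.9969 with the other arrays against at least 0.9973 for every other pair. To show what a dim reading looks like, 9 measured genes of unrelated tissues read between 4.04 and 6.98. A reading in that range does not show whether a transcript was present. These 9 genes had a median difference of -0.0708, with 8 of 9 below 0 and none past the adjusted threshold of limma (1 at an unadjusted p under 0.05).

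C3, the protein on which all activation pathways converge, read 7.64, 7.48 and 7.65 in the 3 DLD-1/Mock arrays. It read 6.55, 6.58 and 6.55 in the 3 DLD-1/DKK1 arrays. The groups did not overlap, and 0.90 on the log2 scale separated the lowest DLD-1/Mock from the highest DLD-1/DKK1 array. The means were 7.59 ± 0.09 and 6.56 ± 0.02 (SD, n = 3 each), a difference of -1.03 (SE 0.06), a ratio of array values of 2.04. Without any single array the difference stayed between -1.08 (without DLD-1/Mock 2) and -0.999 (without DLD-1/Mock 3). The DLD-1/Mock readings lay above the range of the unrelated genes, and the DLD-1/DKK1 readings lay inside it, so the ratio of array values is not a measured ratio of transcripts. That range rests on 9 genes and sets no firm limit: the fibroblast marker COL1A1 also read above it, at 7.34 to 7.74. Fewer cells with C3 transcripts and fewer transcripts per cell cannot be told apart in RNA from whole dishes.

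C5, a paralogue of C3 whose cleavage starts the terminal pathway, read 7.23, 6.94 and 7.37 in DLD-1/Mock and 7.17, 7.16 and 7.09 in DLD-1/DKK1 arrays. The groups overlapped, and the DLD-1/Mock arrays alone spanned more than the whole DLD-1/DKK1 group. The difference was -0.04 (SE 0.11), and its sign turned without DLD-1/Mock 3, where it was 0.06, and after quantile normalization or median centring.

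CFB, which binds C3b and carries the protease of the alternative convertase, was read by 3 probe sets to which the platform table gives the same accessions, and these probe sets disagreed. Probe set 8118345 read 6.18, 6.76 and 5.76 in DLD-1/Mock and 6.70, 6.65 and 7.13 in DLD-1/DKK1 arrays, a difference of 0.59 (SE 0.26). Probe set 8178115 read 5.51, 5.70 and 5.45 against 5.35, 5.30 and 5.73, a difference of -0.10 (SE 0.12). In both of these the groups overlapped. Probe set 8179351 read 6.26, 6.33 and 6.36 against 6.15, 6.10 and 6.24, a difference of -0.15 (SE 0.05), with all DLD-1/DKK1 arrays below all DLD-1/Mock arrays by a margin of 0.02. The first of these probe sets was also among the most variable of the array: its spread within groups, a pooled SD of 0.40, lay at percentile 99.0 of all probe sets, whose median was 0.074. Its difference moved between 0.36 and 0.85 as single arrays were left out, the lower value without DLD-1/Mock 3 and the higher without DLD-1/Mock 2. No single direction can be given for CFB, and all of its readings but the 7.13 in DLD-1/DKK1 3 lay within the range of the unrelated genes.

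C2, the classical-pathway counterpart of CFB, lies next to it on chromosome 6 and showed a similar disagreement. One of its probe sets (8118324) read 4.03, 5.66 and 4.04 in DLD-1/Mock and 4.34, 4.38 and 5.64 in DLD-1/DKK1 arrays. It was highest in DLD-1/Mock 2 and DLD-1/DKK1 3, the same arrays in which CFB probe sets 8118345 and 8178115 were highest within each group. CFB probe set 8179351 was highest in DLD-1/Mock 3 and DLD-1/DKK1 3. The other C2 probe set (8179331) read 5.72, 5.74 and 5.72 against 5.74, 5.72 and 5.69, a difference of -0.01 (SE 0.04). The cause of the shared highs in these arrays was not tested.

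The promoter of CFB, the 250 bases before its start site in RefSeq (build GRCh38.p14, chr6:31945845-31946094, + strand, 5′ to 3′), is shown because 3 of the motifs searched lie in it. Capitals mark, from left to right, an interferon regulatory factor motif read on the other strand, a STAT motif and a TATA box.
CFB: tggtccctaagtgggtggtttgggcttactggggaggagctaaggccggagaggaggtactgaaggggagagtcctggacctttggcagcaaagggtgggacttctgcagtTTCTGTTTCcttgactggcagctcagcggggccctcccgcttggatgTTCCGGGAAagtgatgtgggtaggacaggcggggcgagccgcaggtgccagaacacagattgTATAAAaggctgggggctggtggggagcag
The motifs were searched by their letters on both strands. GAAANNGAA, the interferon regulatory factor motif, lay at bases -139 to -131 from the start and is held by 6.88% of the 35116 promoters of this length. TTCNNNGAA, the STAT motif, reads the same on both strands, lay at bases -92 to -84 and is held by 6.57% of them. TATAAA lay at bases -30 to -25 and is held by 10.7%. None of these overlapped another. The other 4 motifs, with their shares of all promoters, were the kappaB core GGGANTTTC (1.12%), the C/EBP motif TTGCNNAA (9.05%), the AP-1 motif TGANTCA (6.57%) and the TCF/LEF motif CTTTGAT (2.26%). The table held promoters of 8 of the 9 genes, all but C3. Of these, CD59 held a STAT motif as well, and the remaining 6 held none of the 7 motifs in these windows. A match of letters is a description and does not show a bound site.

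**Figure D1:**
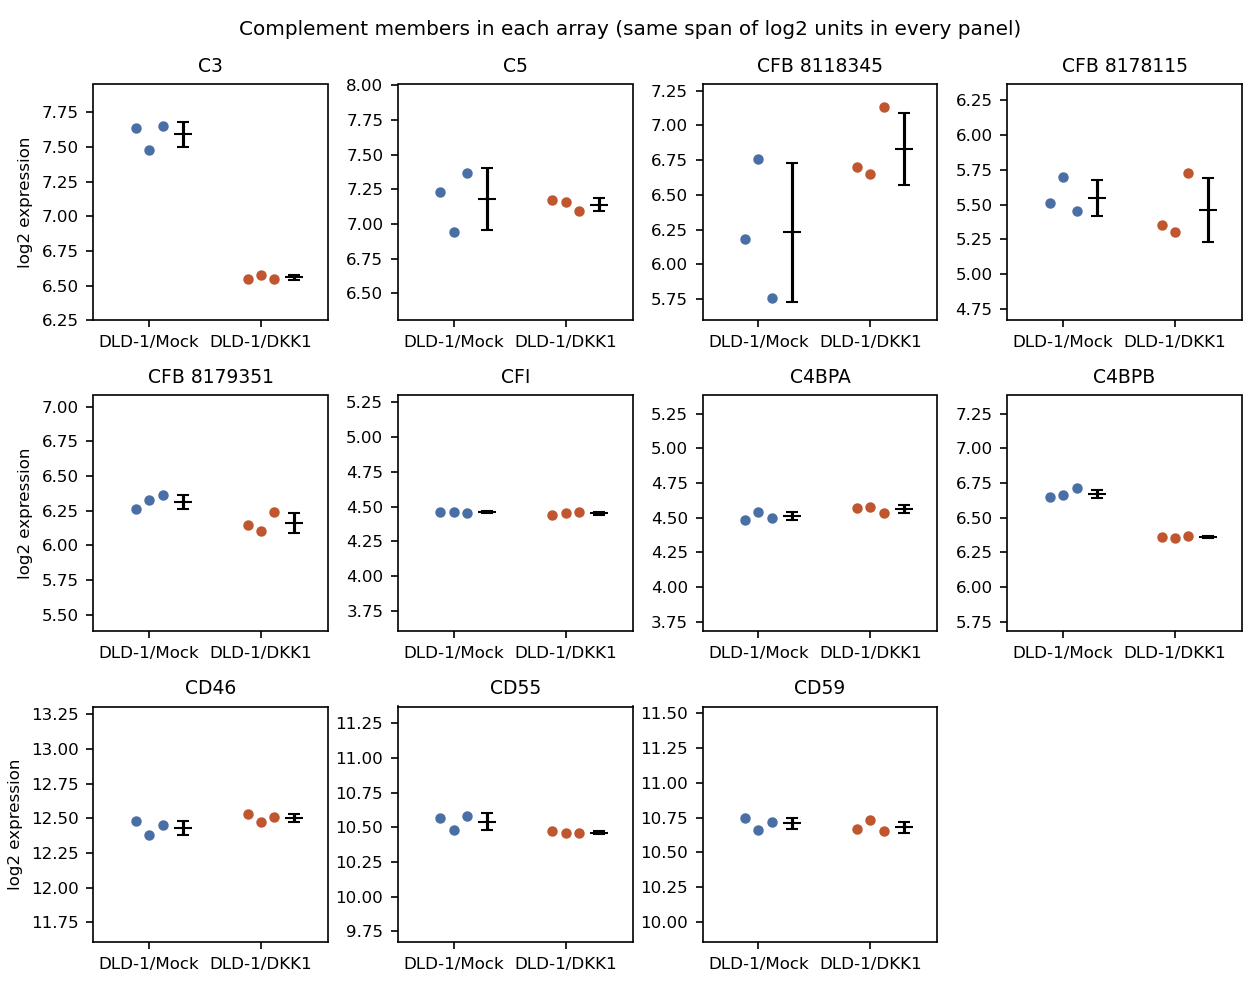
log2 expression (y axis) of the 11 probe sets of the 9 complement genes, with 1 panel per probe set; points are single arrays, horizontal bars group means and error bars SD (n = 3), and every panel covers the same span of log2 units. C3 is separated by 0.90 and C4BPB by 0.28 between the groups. In DLD-1/DKK1 the mean of CFB probe set 8118345 is higher, and the means of CFB probe sets 8178115 and 8179351 are lower.

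Among the soluble regulators, CFI is the protease that cuts C3b and C4b with the help of a cofactor. It read 4.46, 4.46 and 4.45 in DLD-1/Mock and 4.44, 4.45 and 4.46 in DLD-1/DKK1 arrays. All 6 values were at the dim end of the array, at percentile 12.1 of all probe sets, and differed by -0.01 (SE 0.04), with the sign turned by median centring.

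C4b-binding protein is such a cofactor, built of alpha chains encoded by C4BPA and a beta chain encoded by C4BPB, which are neighbours on chromosome 1. C4BPB read 6.65, 6.66 and 6.71 in DLD-1/Mock and 6.36, 6.35 and 6.37 in DLD-1/DKK1 arrays. The groups were separated by 0.28, and the spread within them (pooled SD 0.022) was among the smallest of the array, at percentile 2.84. The means of 6.67 ± 0.03 and 6.36 ± 0.01 (SD, n = 3 each) differed by -0.31 (SE 0.04), a ratio of array values of 1.24. With single arrays left out the difference was -0.33 to -0.30. It was smaller in size after quantile normalization (-0.265), median centring (-0.261) and cyclic loess (-0.26), shifts larger than its pooled SD. All 6 readings lay within the range of the unrelated genes, and here too the ratio is one of array values and not of transcripts. C4BPA, which binds C4b and is the chain the cofactor activity belongs to, read 4.48, 4.54 and 4.50 against 4.57, 4.58 and 4.53. These groups overlapped, with a difference of 0.05 (SE 0.04) at percentile 13.8 of brightness.

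The promoters of both chains are printed because neighbouring genes of one protein gave unlike values. They are the 250 bases before each start in RefSeq, build GRCh38.p14, + strand, 5′ to 3′, at chr1:207088610-207088859 for C4BPB and chr1:207103983-207104232 for C4BPA. Neither holds a motif of those searched, so neither has capitals, and their GC contents are 44.4% and 40.4% against 60.0% for CFB.
C4BPB: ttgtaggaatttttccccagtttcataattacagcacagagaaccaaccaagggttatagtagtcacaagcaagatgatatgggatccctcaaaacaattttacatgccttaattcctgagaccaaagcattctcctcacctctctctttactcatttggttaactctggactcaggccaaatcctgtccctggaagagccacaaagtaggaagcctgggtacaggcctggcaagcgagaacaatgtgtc
C4BPA: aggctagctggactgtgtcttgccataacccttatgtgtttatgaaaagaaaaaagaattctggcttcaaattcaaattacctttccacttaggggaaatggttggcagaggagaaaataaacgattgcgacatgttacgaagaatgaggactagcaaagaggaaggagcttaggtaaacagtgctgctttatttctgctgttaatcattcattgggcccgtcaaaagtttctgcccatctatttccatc

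The 3 membrane regulators were bright in all 6 arrays, well above the range of the unrelated genes. CD46, the membrane cofactor for CFI, read 12.48, 12.38 and 12.45 in DLD-1/Mock and 12.53, 12.47 and 12.51 in DLD-1/DKK1 arrays. The groups overlapped, with a difference of 0.07 (SE 0.05), and the probe set stood at percentile 97.9 of brightness. CD55, which speeds the decay of the convertases, read 10.57, 10.48 and 10.58 against 10.47, 10.46 and 10.46. All its DLD-1/DKK1 arrays were below all DLD-1/Mock arrays, but by a margin that rounds to 0.00, and the difference was -0.08 (SE 0.04). CD59, which blocks the assembly of the membrane attack complex, read 10.75, 10.66 and 10.72 against 10.67, 10.73 and 10.65. The groups overlapped, with a difference of -0.03 (SE 0.04) whose sign turned under median centring.

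Over the 11 probe sets, 8 differences were below 0 and 3 above, and 7 lay within 0.1 of 0. The signs of C5, CFI and CD59 turned under median centring, which moved the median of all probe sets from -0.00635 to 0.0461. The median of the 11 was -0.04, beside -0.00635 over all probe sets. In 4 of the 11 the groups did not overlap (C3, C4BPB, CD55 and CFB probe set 8179351), each with DLD-1/DKK1 below DLD-1/Mock, where 16.5% of all 32321 probe sets had groups that did not overlap in either direction. Of the 11, 3 had an unadjusted limma p under 0.05, beside 9.23% of all probe sets. At an adjusted p under 0.05 by limma, 1 of the 11 was called, C3, beside 0.0866% of all probe sets (28 of 32321). Nothing is read from these member counts, since the same contrast chose C3.

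**Figure D2:**
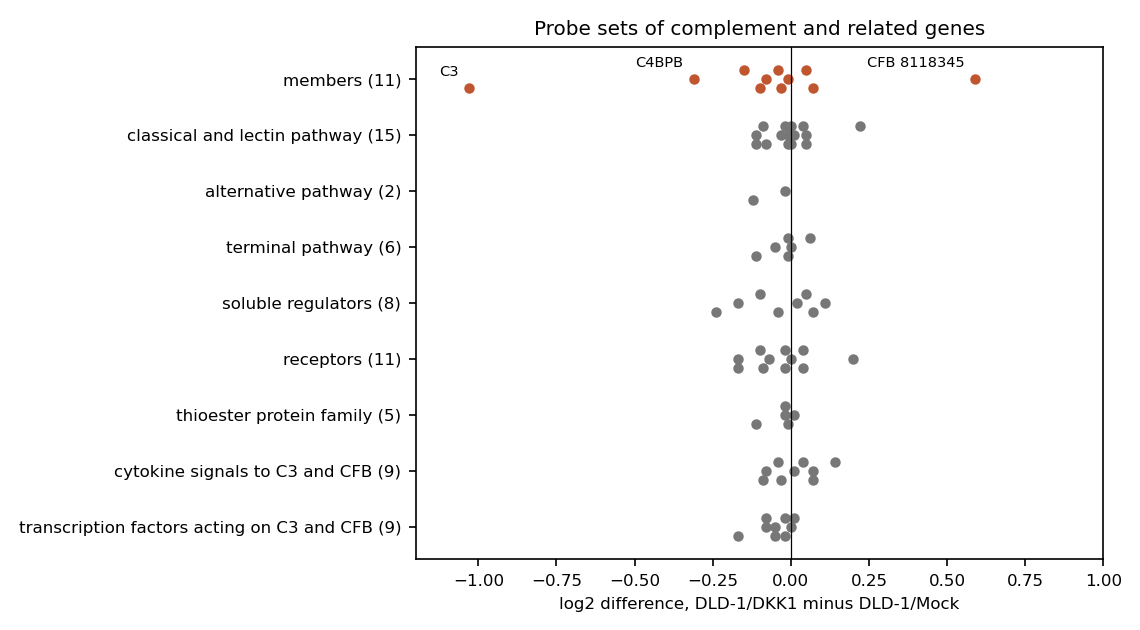
Differences in log2 expression, DLD-1/DKK1 minus DLD-1/Mock (x axis), of the 11 probe sets of the 9 genes and of the other complement and related genes by list (y axis, number of probe sets in brackets); each point is 1 probe set. The other complement genes lie between -0.24 and 0.22, while C3 lies at -1.03, C4BPB at -0.31 and 1 CFB probe set at 0.59.

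Of the other genes of the complement system, 46 were listed and 40 had a probe set of their own (42 probe sets). None passed the adjusted threshold of limma, at a lowest adjusted p of 0.398, beside 0.0866% of all probe sets. None did in a plain linear model without moderation either, but a count of 0 there shows little. That model called 1 of all probe sets, and DKK1 itself did not pass in it (adjusted p 0.0646). At an unadjusted p under 0.05, 3 of the 42 were found, beside 9.23% of all probe sets. In 5 of the 42 the groups did not overlap, beside 16.5% of all. Their median difference was -0.0148, with 15 genes above and 25 below 0 in the values as deposited. The initiators of the classical and lectin pathways (14 of 16 measured), such as C1Q, ficolins and their proteases, had a median of -0.00991 and a range of -0.11 to 0.22. CFD, the protease that cleaves CFB, and CFP, properdin, which stabilizes the alternative convertase, had a median of -0.0704. The terminal components C6 to C9 (6 genes) had a median of -0.0104 and lay between -0.11 and 0.06. C4 itself was read only by a probe set shared by C4A, C4B and C4B_2, at 6.20, 6.31 and 6.16 in DLD-1/Mock and 6.10, 6.14 and 6.24 in DLD-1/DKK1 arrays, a difference of -0.06 (SE 0.06).

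Of 11 further soluble regulators listed, 7 were measured, with a median difference of 0.0172. CFHR4 read 4.19, 4.38 and 4.26 in DLD-1/Mock and 3.97, 4.04 and 4.11 in DLD-1/DKK1 arrays in probe set 7908492, a difference of -0.24 (SE 0.06, limma adjusted p 0.433). Its second probe set, 8180222, differed by 0.02 (SE 0.07), so the first value was not repeated within the gene. CFHR4 belongs to a family of similar genes, and whether these probe sets also read others of it was not tested. CPN2, the regulatory subunit of the carboxypeptidase that inactivates C3a and C5a, read 6.30, 6.47 and 6.24 against 6.12, 6.18 and 6.19, a difference of -0.17 (SE 0.07, limma adjusted p 0.531). The 11 complement receptors, all measured, had a median of -0.0248 and lay between -0.17 and 0.20. ITGAX, the alpha chain of complement receptor 4, which binds iC3b, read 6.11, 6.20 and 6.21 against 5.99 to 6.01. Its groups did not overlap, and the difference of -0.17 (SE 0.04) had a limma adjusted p of 0.398. All readings of ITGAX and CPN2 lay within the range of the unrelated genes, and those of CFHR4 probe set 7908492 within or below it. Such readings do not show whether a transcript was present.

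C4BPB, C4BPA, CD55 and CD46 lie in a cluster of complement regulators on chromosome 1, in which the RefSeq table lists 18 genes from C4BPB to CD46 and 6 had a probe set of their own. In genome order their differences were -0.31 for C4BPB, 0.05 for C4BPA, -0.08 for CD55, 0.20 for CR2, 0.00 for CR1 and 0.07 for CD46. C4BPB was the most negative of the 6. The nearest measured genes before it, YOD1 and then PFKFB2, differed by -0.03 (SE 0.04) and -0.04 (SE 0.10). All readings of C4BPB, C4BPA and CR1 lay within the range of the unrelated genes. Those of C4BPA and CR1 were at the dim end, where a lowering may not be visible. CR2, the receptor for C3d, read 7.94, 7.72 and 7.95 in DLD-1/Mock and 8.22, 8.06 and 7.92 in DLD-1/DKK1 arrays. Its groups overlapped, and its difference of 0.20 (SE 0.10) had a limma adjusted p of 0.581. The measured genes nearest to C3 on chromosome 19 were TNFSF14 and CD70 on one side and GPR108 and TRIP10 on the other. Their differences were -0.09 (SE 0.08), -0.06 (SE 0.10), -0.07 (SE 0.04) and -0.09 (SE 0.04), with limma adjusted p-values of 0.566 to 0.851.

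**Figure D3:**
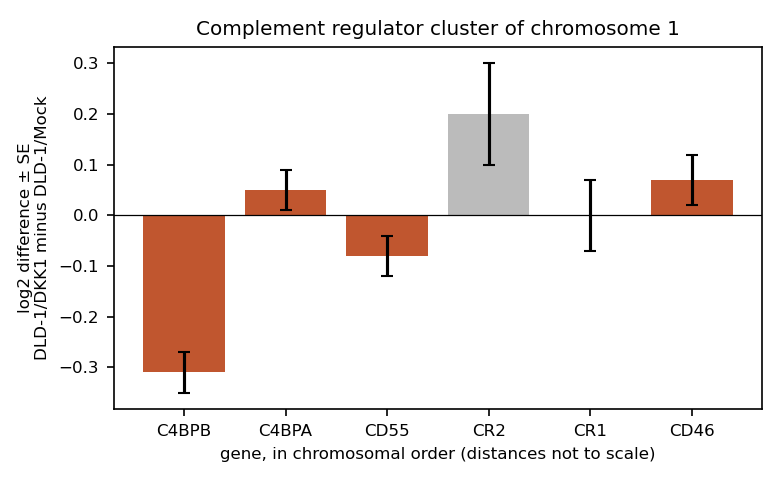
Differences in log2 expression, DLD-1/DKK1 minus DLD-1/Mock (y axis), with standard error bars from limma, of the 6 measured genes of the complement regulator cluster on chromosome 1 in genome order (x axis). C4BPB lies at -0.31 while C4BPA, next to it, lies at 0.05, and the readings of both lay within the range of the unrelated genes.

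Several signals and factors are known to act on transcription of C3 and CFB, among them inflammatory cytokines, interferons, NF-kappaB and C/EBP proteins. Of 9 cytokines and receptors listed, all were measured, with a median difference of 0.00925. Of 10 transcription factors listed, 9 were measured, with a median of -0.0456 and 8 of 9 below 0. The unrelated genes also had 8 of 9 below 0, at a median of -0.0708. Median centring moved the median of all probe sets from -0.00635 to 0.0461, so signs of differences this small depend on the centring. The thioester relatives of C3, such as A2M, gave 5 measured genes with a median of -0.0167. None of these 23 genes passed the adjusted threshold of limma, at a lowest adjusted p of 0.503, beside 0.0866% of all probe sets. None did without moderation, where 1 of all probe sets passed and DKK1 itself did not. Of the 23, 1 had an unadjusted limma p under 0.05, beside 9.23% of all probe sets. This was NFKB2, a subunit of NF-kappaB, which read 9.14, 9.18 and 9.22 in DLD-1/Mock and 8.90, 9.10 and 9.03 in DLD-1/DKK1 arrays, a difference of -0.17 (SE 0.06).

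The genes whose values over the 6 arrays lay nearest to those of C3 were searched among 19147 other probe sets with a single symbol, by the Euclidean distance after subtracting each probe set's mean. The distance counts size as well as shape, and the likeness to C3 is in large part the difference between both groups, so it is a description. The nearest was SAMD9, an interferon-inducible protein, at a distance of 0.40, with 7.55, 7.32 and 7.50 in DLD-1/Mock and 6.78, 6.74 and 6.72 in DLD-1/DKK1 arrays. SLPI, a secreted inhibitor of serine proteases, followed at 0.42 with 9.02, 8.88 and 9.11 against 8.26, 8.38 and 8.28. IQGAP2, a scaffold protein of the cytoskeleton, stood at 0.43, SLC10A1, a bile acid transporter, at 0.46, and IGFL2 at 0.53. Their differences were -0.71, -0.70, -0.69, -0.67 and -0.61 in that order, all smaller in size than that of C3. In all of them, as in C3, DLD-1/Mock 2 was the lowest of the DLD-1/Mock arrays. All readings of SLC10A1 lay within the range of the unrelated genes, and those of IQGAP2 did not exceed its top of 6.98. SAMD9 lay inside that range in the DLD-1/DKK1 arrays only, while SLPI and IGFL2 lay above it in all arrays. The median distance from C3 was 1.27, the same as the length of C3's own pattern.

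**Figure D4:**
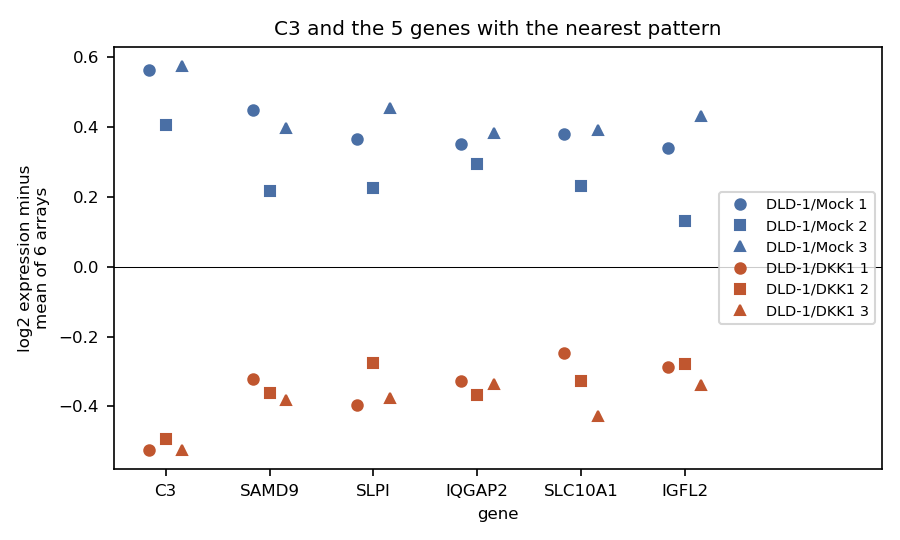
log2 expression minus the mean of the 6 arrays (y axis) for C3 and the 5 genes nearest to it (x axis), 1 point per array. DLD-1/Mock lies above 0 and DLD-1/DKK1 below 0 in all 6 genes, with DLD-1/Mock 2 the lowest of its group in each.

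The cell type markers were measured beside the complement genes. All 10 colon epithelium markers were measured, between 5.50 and 12.96, with EPCAM, CDH1 and KRT8 bright and KRT20 dim at 5.50 to 5.67. Their differences lay between -0.11 and 0.11. None passed the adjusted threshold of limma and none had an unadjusted p under 0.05, although in 7 of their 12 probe sets the groups did not overlap, beside 16.5% of all probe sets. The 7 hepatocyte markers, of a tissue that makes most plasma complement, read 4.08 to 6.22, within the range of the unrelated genes, with a mean level of 5.05 to 5.18 in DLD-1/Mock and 5.05 to 5.08 in DLD-1/DKK1 arrays. The 7 leukocyte markers read 4.29 to 6.49, also within it, with PTPRC at 4.29 to 4.40. Their mean level was 5.15 to 5.22 in DLD-1/Mock and 5.13 to 5.14 in DLD-1/DKK1 arrays. Of these, CD14 differed by -0.27 (SE 0.08) and was the 1 leukocyte marker with an unadjusted limma p under 0.05. The 6 fibroblast markers read 4.07 to 7.74, with a mean level of 5.89 to 6.02 against 5.87 to 5.96. Among them COL1A1, at 7.34 to 7.74, read above the range of the unrelated genes. The 4 endothelium markers read 3.81 to 6.28, with a mean level of 5.44 to 5.62 against 5.40 to 5.47. No marker of these cell types passed the adjusted threshold of limma, and their part in the values of C3 was not tested.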

How the data were processed

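RNA from 3 dishes per group was hybridized to Affymetrix Human Gene 1.0 ST arrays. The authors deposited log2 expression values, summarized and normalized by robust multichip averaging with affy in R. The sources used here do not give versions of these tools. Precision is limited by the number of arrays. The study describes independent dishes and no separate transductions. The SDs, SEs and limma p-values therefore rest on the spread between dishes, not between separately transduced cultures. Groups were taken from the sample titles, and genes from the platform table. The 32321 probe sets were tested with limma 3.58.1 (R 4.3.3; 4 residual and 2.56 prior degrees of freedom) with Benjamini-Hochberg adjustment over all of them and a threshold of 0.05; the test was checked on simulated data. Outside the members, medians, mean levels and counts above or below 0 took a gene with several probe sets once, by its brightest. Calls, overlaps of groups and ranges used all probe sets. Named were all members, DKK1, up to 2 genes per list with the smallest unadjusted p under 0.05, and the 5 probe sets nearest to C3. Other probe sets and neighbours named beside them, with CR2, CD14 and the C4 probe set, were chosen after their values were seen. The members and all gene lists were chosen with earlier results of these data known. Alternatives were quantile normalization, median centring, cyclic loess, a brightness filter, annotated probe sets, a trended prior, no moderation, array weights, a replicate block and leaving out each array. Some listed genes are not reported here. Promoters are from RefSeq. Figures were drawn with matplotlib 3.10.9.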

Additional observations from a re-analysis of the deposited data

How the results depend on the processing

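Of all probe sets, 28 passed the adjusted threshold of limma (12 higher, 16 lower in DLD-1/DKK1). There were 17 after median centring (10 higher, 7 lower), 66 among probe sets above the median brightness, 98 among annotated probe sets, 53 with a trended and robust prior, 59 with array weights, 1 without moderation, and 2 to 6 without a single array. Of the members, C3 passed, which is no independent test since the same contrast chose it. With annotated probe sets or array weights 2 passed, C3 and C4BPB, and without moderation 0. Without single arrays it was 0 to 1, with C3 passing only when the array left out was DLD-1/Mock 2. The counts of the other complement genes and of the related genes stayed at 0 in every setting run, with 3 and 1 at an unadjusted p under 0.05 in limma. These counts of 0 show little where few of all probe sets passed. That was so without moderation, with a replicate block and without single arrays. Same-numbered arrays showed no clear pairing: their deviations correlated at 0.10, 0.01 and -0.14, and not every array correlated best with its own number. Arrays of other numbers correlated at -0.23 to 0.23, the highest being DLD-1/Mock 2 with DLD-1/DKK1 3. Deviations within a group sum to 0, and a shared batch was not tested. With a replicate block, 1 probe set and 0 members passed. The causes were not tested. With 3 arrays per group and no counts, readings within the range of the unrelated genes show no presence or absence of a transcript.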
